A study of Mus musculus with 35 samples.

Results

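The genes described here are 34 symbols chosen as hypoxia-inducible and glycolysis genes: the oxygen-sensing machinery and its hypoxia-inducible factors (HIFs), the glucose and lactate transporters, the enzymes and regulators of glycolysis, and other well-known HIF targets. They take 35 of the 54532 gene entries in the count table, since the symbol Aldoa stands for a main entry and for an overlapping one (ENSMUSG00000114515). Messenger RNA of whole lungs was sequenced from 34 mice in 12 groups. Control mice were B6/129SJ2 wild types, Cav1-KO mice carried the Cav1(tm1Mls/)J allele and lacked caveolin-1, the coat protein of caveolae, in every cell, and Cav1-RC mice carried the same loss with caveolin-1 given back to endothelial cells alone. Female and male adults of at least 3 months were kept for 6 weeks in room air (normoxia) or at 10% oxygen (hypoxia). Each group held 3 mice, except normoxic female Cav1-KO and normoxic female Cav1-RC with 2 each. Control and Cav1-KO mice were bought and Cav1-RC mice came from another laboratory. The promoter that drives the endothelial caveolin-1 is not given in the sources used here, and p-values measure the spread between these libraries, 1 per mouse.

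When oxygen is plentiful, prolyl hydroxylases (Egln1, Egln3) mark the HIF alpha subunits (Hif1a, Epas1) for destruction by the von Hippel-Lindau protein (Vhl). When oxygen falls, the alpha subunits escape, bind short DNA motifs with the core RCGTG near their target genes and raise transcription, among others of nearly the whole glycolytic pathway, of glucose uptake and lactate export, and of the kinase that keeps pyruvate out of mitochondria. In the lung, Epas1 is the abundant alpha subunit of endothelial cells, and HIF activity in the vessel wall is a well-studied part of pulmonary hypertension. Control of the alpha subunits acts mainly on the protein, which RNA does not show.

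Some features of the libraries bear on every comparison. Depth ran from 12425535 to 33343006 counts per library (median 18015172.5). The study's source list for its western blots names the mice of 12 of the 34 libraries: all 6 hypoxic Cav1-KO, all 3 hypoxic male Control, and 1 each of normoxic female Control, hypoxic female Control and normoxic female Cav1-RC. The labels give 1 date for all libraries, so this list is the only other split of the mice used here, and 45.8% of all genes tested passed the test for it. In Cav1-KO mice of both sexes and in male Control mice every hypoxic library and no normoxic library was on the list, so list and oxygen cannot be told apart there. The same holds for list and genotype in the comparisons of hypoxic Cav1-RC with hypoxic Cav1-KO mice. By their Xist and Y chromosome counts, 3 libraries go against the sex of their label (male Cav1-RC normoxia replicates 1 and 2 and male Control hypoxia replicate 2). They were kept under their label, and results are given with and without them. Cav1 stood at 988.6 to 1356 CPM, counts scaled to library size, in Control, at most 4.0 in Cav1-KO and 1.48 to 6.56 in Cav1-RC libraries. Whether these counts can register the Cav1 returned to Cav1-RC mice was not tested. The lung label held, with summed levels of 947.6 to 1732 FPKM for 10 endothelial markers and of 10280 to 26250 FPKM for 7 alveolar type 2 markers.

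All 34 genes were detected, but at very different levels. The unit for levels is FPKM, read pairs scaled to gene length and to the library's counted pairs, which allows levels of different genes to be compared. Epas1 was the highest of the oxygen-sensing genes, with a median of 502.8 FPKM, above 99.8% of detected genes, against 29.2 FPKM for Egln1, 12.5 for Hif1a, 10.6 for Vhl and 1.43 for Egln3. Among the glycolytic enzymes the order of medians was Aldoa (169.1 FPKM), Ldha (86.3), Pkm (58.9), Pgk1 (46.3), Tpi1 (41.4), Gpi1 (34.5), Pgam1 (30.5), Eno1 (17.9), Pfkl (11.0), Hk1 (9.78), Pfkp (5.12) and Hk2 (4.59). Of the regulators, Pfkfb3 had a median of 15.7 FPKM, Pfkfb4 12.1 and Pdk1 5.24, and of the transporters Slc2a1 had 10.0 and Slc16a3 4.08. Of the other HIF targets, Ddit4 was highest (27.1 FPKM) and Car9 lowest (0.83). Spread over the libraries differed as well. The highest library exceeded the lowest 10.4-fold for Pgam1, 8.86-fold for Adm, 6.84-fold for Egln3 and 6.22-fold for Pfkfb3, against 1.39-fold for Egln1 and 1.60-fold for Kdm3a.

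A few members have thin or ambiguous counts. Car9 had a median of 37 counts per library, Egln3 70, Ankrd37 77.5 and Adm 95.5, so their values are less precise than those of the others. Gapdh, a textbook housekeeping enzyme, had a median of only 119 counts and 1.57 FPKM. It has many near-identical pseudogenes in the mouse genome, and its values are reported as uncertain. The overlapping second Aldoa entry had a median of 12.5 counts. Eno1 has a near-identical copy, Eno1b, which held 21.6% as many counts and is treated apart below.

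The first question was whether 6 weeks at 10% oxygen moved these genes once the western blot list was allowed for. With 1 mean for each of the 12 groups and a term for the list, averaged over genotypes and sexes, 16 of the 35 entries rose in hypoxia, 1 fell, and 18 did not pass the test. Tests are edgeR's quasi-likelihood test with Benjamini-Hochberg adjustment over all genes tested, and a gene is said to have risen or fallen at an adjusted p under 0.05. In the same fit 9.47% of all genes passed. The median log2 fold change was 0.24 over the members and -0.00 over all genes, and 27 of 35 members lay above 0, against 49.9% of all genes. None of the members also passed the study's second threshold, an absolute log2 fold change above 1, which 1.76% of all genes did. Ndrg1 (log2 fold change 0.85, SE 0.0856, adjusted p = 1.45e-07), Aldoa (0.57, SE 0.0912, adjusted p = 0.000144), Pkm (0.57, SE 0.10, adjusted p = 0.000509), Slc16a3 (0.63, SE 0.113, adjusted p = 0.000551), Bnip3 (0.68, SE 0.128, adjusted p = 0.000942) and Hmox1 (0.60, SE 0.114, adjusted p = 0.00116) had the smallest adjusted p among those that rose. Epas1 fell by 0.28 on the log2 scale (SE 0.0877, adjusted p = 0.0457).

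**Figure D1:**
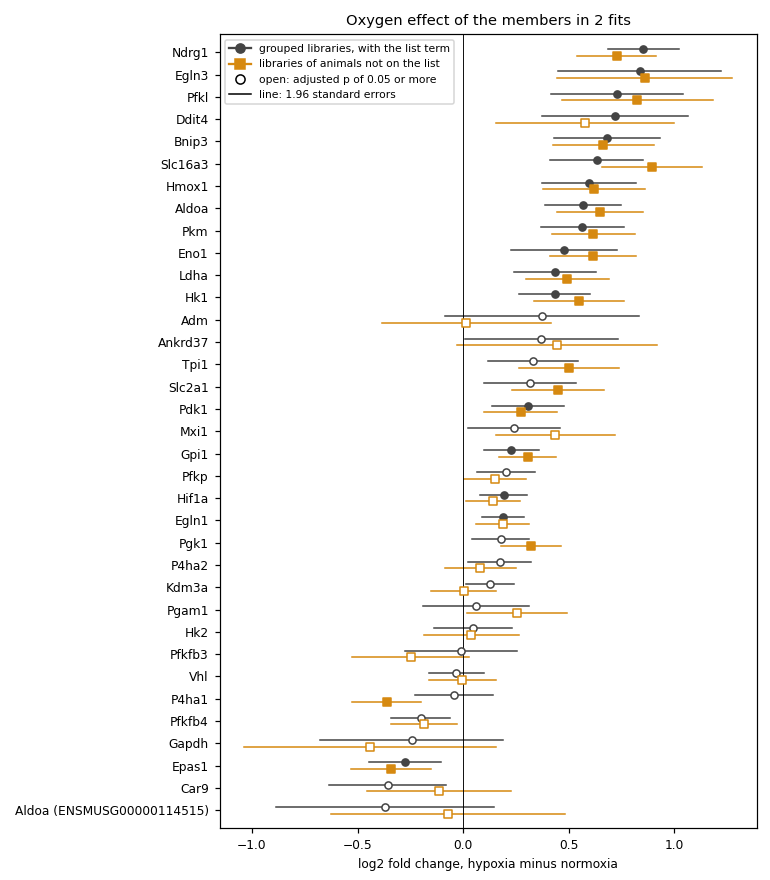
Log2 fold change of hypoxia against normoxia for each of the 35 entries, in the fit over 34 libraries with the list term (grey circles) and in the 22 libraries of animals not on the list (orange squares); lines are 95% intervals and filled points have an adjusted p under 0.05. Ndrg1 heads the order in the fit with the list term at 0.85, and 27 of the 35 entries lie above 0 in that fit.

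Ndrg1, a stress-response gene and classical HIF target on chr15:66929318-66969640 (mm10, minus strand), separated the oxygen levels completely among the libraries with a group. The library of uncertain group is described at the end. Its level was 4.36 to 6.69 FPKM in the 16 normoxic libraries and 7.46 to 12.5 FPKM in the 18 hypoxic libraries, so that no hypoxic library of any genotype or sex reached down to a normoxic one. It was the only member of which this was true over all libraries, as it was of 12 of the 19870 genes tested (0.0604%). In Control females the normoxic libraries held 4.36, 4.89 and 5.04 FPKM and the hypoxic ones 8.18, 10.1 and 10.6. In Cav1-KO females they held 6.69 and 6.06 in normoxia and 12.5, 12.3 and 10.4 in hypoxia, and in Cav1-RC females 5.18 and 6.55 against 7.73, 9.12 and 12.4. The 3 male genotypes had hypoxic libraries of 9.59, 7.60 and 7.46 FPKM (Control), 8.85, 7.55 and 11.6 (Cav1-KO) and 9.44, 8.76 and 7.73 (Cav1-RC). Their normoxic libraries all lay between 4.73 and 6.32 FPKM.

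**Figure D2:**
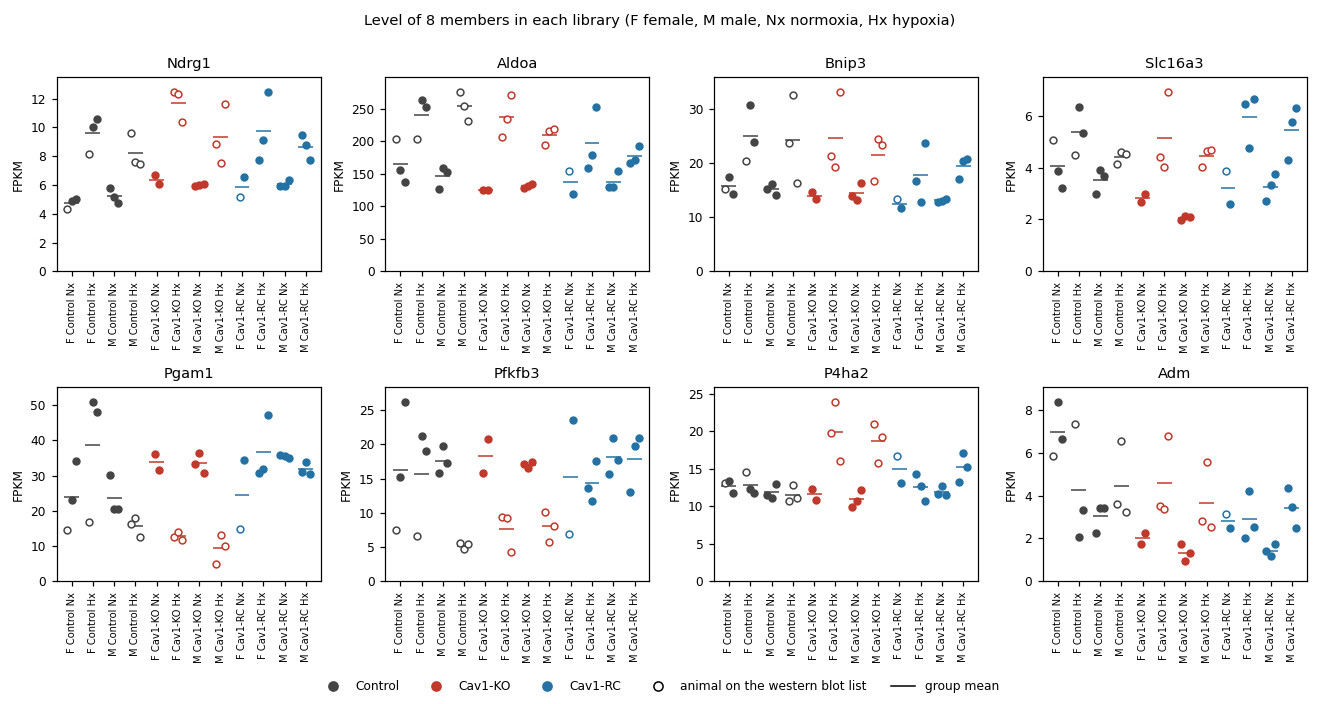
FPKM of 8 members in each of the 34 libraries by group, with 1 point per mouse, open points for mice on the western blot list and a line at the group mean; each panel starts at 0. The hypoxic groups of Ndrg1 stand clear of every normoxic group, whereas Pgam1 and Pfkfb3 are low in the open points.

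A further 5 members came close to this. In 5 of the 6 comparisons of genotype and sex, every hypoxic library lay above every normoxic one for Aldoa, Bnip3, Hmox1, Ldha and Slc16a3. With Ndrg1 these are 6 of 35 entries, beside 0.629% of all genes tested that did so in 5 or 6 comparisons. In the other direction 1 entry, Epas1, lay wholly below in 5 comparisons, beside 0.614% of all genes in 5 or 6. List and oxygen coincide in the comparisons of Control males and of Cav1-KO mice of both sexes. Aldoa, which splits fructose bisphosphate, held 127, 159 and 153 FPKM in normoxic Control males and 276, 253 and 231 in hypoxic ones. In normoxic Cav1-KO males it held 127, 130 and 134 FPKM and in hypoxic ones 194, 216 and 219. Only in Control females did its oxygen levels overlap, where normoxic replicate 1, a mouse on the western blot list, held 204 FPKM against 204, 263 and 253 in hypoxia. Bnip3, a mitochondrial receptor for mitophagy, held 15.2, 17.5 and 14.3 FPKM in normoxic and 20.4, 30.7 and 24.0 in hypoxic Control females. In Cav1-RC males it held 12.8, 13.1 and 13.4 against 17.0, 20.3 and 20.8 FPKM, and only in Cav1-RC females (13.3 and 11.7 against 16.7, 12.8 and 23.7 FPKM) did the levels overlap. Slc16a3, the lactate exporter MCT4, was 1.99, 2.15 and 2.08 FPKM in normoxic Cav1-KO males, the lowest of all groups, and 4.01, 4.64 and 4.69 in hypoxia.

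Across the steps of glycolysis, 7 of the 14 enzyme entries rose with the list term, where 9.47% of all genes passed: Aldoa, Pkm, Hk1 (0.43, SE 0.0864), Pfkl (0.73, SE 0.160), Ldha (0.44, SE 0.0990), Eno1 (0.48, SE 0.129) and Gpi1 (0.23, SE 0.0663). They cover hexose phosphorylation, isomerization, the committed phosphofructokinase step, aldol cleavage, enolase, pyruvate kinase and lactate formation. Hk2, Pgam1 and Pgk1 did not pass, with log2 fold changes of 0.05, 0.06 and 0.18, and nor did Tpi1, Pfkp, Gapdh and the second Aldoa entry. Without the 3 libraries of high macrophage sum described below, none of the 7 passed. Of the regulators, Pdk1, the kinase that blocks entry of pyruvate into mitochondria, rose by 0.31 on the log2 scale (SE 0.0866, adjusted p = 0.0237), whereas Pfkfb3 and Pfkfb4, which set the level of the phosphofructokinase activator fructose-2,6-bisphosphate, had values of -0.01 and -0.20 and did not pass. Among the oxygen-sensing genes, Egln3 (0.84, SE 0.198), Egln1 (0.19, SE 0.0501) and Hif1a (0.19, SE 0.0579) rose and Vhl, at -0.03, did not pass. Slc2a1, the glucose transporter GLUT1, had a log2 fold change of 0.32 with an adjusted p of 0.072. Of the other HIF targets, Ddit4 rose as well (0.72).

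The 22 libraries of mice not on the list gave a value within 1 side of that split, for the strata that hold both oxygen levels (female Control, female Cav1-RC and male Cav1-RC). There 16 entries rose and 2 fell, against 13.8% of all genes called, with a median log2 fold change of 0.30 over the members and 0.02 over all genes. Slc16a3 (0.90, SE 0.121), Ndrg1 (0.73, SE 0.0952), Aldoa (0.65, SE 0.103), Pkm (0.62, SE 0.0999), Eno1 (0.61, SE 0.104) and Bnip3 (0.66, SE 0.121) rose with the smallest adjusted p. Those that fell were Epas1 (-0.34, SE 0.0962) and P4ha1 (-0.36, SE 0.0834), a subunit of the collagen prolyl 4-hydroxylase. The 2 fits share 22 libraries, so the second is not independent of the first. Of the 8 hypoxic libraries here, 3 are those of high macrophage sum described next. In this fit 6 of 9 neutrophil markers rose, and of 9 macrophage markers 4 rose and 1 fell. The count of 18 went to 10 with the macrophage sum as a term (4.94% of all genes) and to 11 with the neutrophil sum (3.55%). With the erythroid sum it went to 22 (16.3%).

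Immune cell markers moved with oxygen as well. In RNA of a whole organ, fewer cells of a type and less RNA per cell cannot be told apart. Of 9 neutrophil markers, 6 rose with the list term, and their summed level ran from 31.8 to 158.8 FPKM in normoxic and from 50.8 to 672.5 FPKM in hypoxic libraries. Of 9 alveolar macrophage markers, 3 rose and 1 fell, with sums of 201.7 to 723.4 FPKM in normoxia and 207.8 to 2329 in hypoxia, and no marker of either list was at 0 in every library of an oxygen level. The highest macrophage sums belonged to 3 libraries: hypoxic female Cav1-RC replicate 2 (2329 FPKM) and hypoxic female Control replicates 2 and 3 (1847 and 1262 FPKM). Without these 3 libraries, an alternative chosen after seeing the data, all 17 called members kept their direction, 16 of the 17 had a smaller absolute fold change, and only Ndrg1 (0.84, SE 0.123, adjusted p = 0.000261) and Bnip3 (0.59, SE 0.163, adjusted p = 0.0450) passed, beside 3.21% of all genes. Of the calls lost, Gpi1 went from 0.23 to 0.07, Eno1 from 0.48 to 0.22 and Ldha from 0.44 to 0.25, while Epas1 (-0.28 to -0.31), Egln3 (0.84 to 0.81) and Hif1a (0.19 to 0.17) kept nearly the same fold change with wider standard errors. The 2 Control libraries left out are also the only hypoxic female Control libraries off the list. Without the 3 libraries that go against their sex label 13 passed, beside 7.05% of all genes. With the macrophage sum as a further term 14 members passed (7.88% of all genes), with the erythroid sum 14 (5.69%), and with the neutrophil sum 11 (3.04%).

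Promoter sequence is shown for members among those with the smallest adjusted p, 2 with HIF core motifs and 1 without. Of the 34 genes, 31 had a RefSeq promoter window (GRCm38.p6, which is mm10), 250 bases before to 50 after a start site, 1 window per gene. The HIF core was searched as ACGTG and GCGTG on both strands, where the palindrome CACGTG counts on each strand. It was present in 24 of 31 member windows (77.4%) and in 14380 of 32851 windows of all genes (43.8%), a description of letters that says nothing of binding. The second share takes every window, so that some genes count more than once. The members were also chosen as hypoxia-inducible and glycolysis genes, so the shares are not of like sets. The windows of Slc16a3 (chr11:120948817-120949116, plus strand) and Bnip3 (chr7:138909457-138909756, minus strand) hold 2 and 5 matches, shown in capitals. The window of Aldoa (chr7:126800398-126800697, minus strand), 1 of 3 windows for that gene, holds none, and nor do those of Pkm and Hk1.
Slc16a3: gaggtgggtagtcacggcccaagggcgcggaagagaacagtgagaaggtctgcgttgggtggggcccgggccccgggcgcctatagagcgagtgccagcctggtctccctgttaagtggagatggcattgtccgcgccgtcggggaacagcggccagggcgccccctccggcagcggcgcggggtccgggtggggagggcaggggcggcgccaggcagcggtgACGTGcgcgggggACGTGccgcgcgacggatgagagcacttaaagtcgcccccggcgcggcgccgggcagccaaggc
Bnip3: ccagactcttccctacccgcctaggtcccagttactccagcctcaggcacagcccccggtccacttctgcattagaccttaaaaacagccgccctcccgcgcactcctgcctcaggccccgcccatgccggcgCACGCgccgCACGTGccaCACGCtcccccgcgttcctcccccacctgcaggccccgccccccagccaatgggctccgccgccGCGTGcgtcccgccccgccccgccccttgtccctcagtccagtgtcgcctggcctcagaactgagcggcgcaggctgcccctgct
Aldoa: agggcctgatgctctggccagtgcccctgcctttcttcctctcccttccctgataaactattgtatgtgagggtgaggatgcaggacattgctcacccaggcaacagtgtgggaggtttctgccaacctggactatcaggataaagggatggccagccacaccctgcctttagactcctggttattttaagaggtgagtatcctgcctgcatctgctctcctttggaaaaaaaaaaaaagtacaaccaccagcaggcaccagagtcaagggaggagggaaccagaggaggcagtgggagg
Counted from the start site, the Slc16a3 matches begin at -27 and -14 and those of Bnip3 between -117 and -35, with CACGTG read on both strands. Members with and without a match were both among those that rose.

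By genotype, with the list term and both sexes averaged, hypoxia raised 12 members and lowered none in Control mice, where 18.6% of all genes passed, 10.5% of all upward. Ndrg1 (0.99, SE 0.123), Pkm (0.93, SE 0.145), Hk1 (0.66, SE 0.125), Eno1 (0.89, SE 0.184), Pfkl (1.07, SE 0.230) and Aldoa (0.61, SE 0.131) led. All 3 hypoxic Control males were on the list and no normoxic one was, so their part here depends on a list term estimated from females. Alone and without that term, 8 members were higher and 4 lower in Control males. Hk1 there held 7.95 to 9.90 FPKM in hypoxia and 7.94 to 9.56 in normoxia. In Cav1-RC mice 5 rose and 2 fell, with 5.95% of all genes called. Slc16a3 (0.86, SE 0.161), Ndrg1 (0.55, SE 0.116), Egln3 (1.25, SE 0.266), Aldoa (0.48, SE 0.128) and Hmox1 (0.52, SE 0.159) rose, and P4ha1 (-0.63, SE 0.129) and Epas1 (-0.43, SE 0.122) fell. Without the libraries that go against their sex label only P4ha1 passed there, and all 5 rises lost their call. In Cav1-KO mice only Ndrg1 passed (1.02, SE 0.175, adjusted p = 0.00310), with 1.22% of all genes called. DESeq2 called 7 there and 15 had an unadjusted p under 0.05 with edgeR. All 6 hypoxic Cav1-KO libraries were on the list, so the effect there depends on a list term estimated from other groups. Over the members the median was 0.29 for Control, 0.34 for Cav1-KO and 0.20 for Cav1-RC mice, against -0.01, -0.01 and 0.01 over all genes. Markers of other cells moved in the same contrasts, and their part in these results was not tested. In Control mice 6 of 9 macrophage (median 1.05), 4 of 10 endothelial and 4 of 7 alveolar type 2 markers rose. In Cav1-RC mice 7 of 9 neutrophil markers rose (median 2.17), and in Cav1-KO mice 4 of 9 erythroid markers (median 4.07).

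The difference in oxygen effect between genotypes was tested directly, and 3 members passed: 2 of 35 for Cav1-KO against Control and 1 of 35 for Cav1-RC against Control, shares near or below those of all genes. P4ha2, another subunit of collagen prolyl 4-hydroxylase, had an oxygen effect larger in Cav1-KO than in Control mice by 0.65 on the log2 scale (SE 0.149, adjusted p = 0.0183). Its level was 9.92 to 12.3 FPKM in the 5 normoxic Cav1-KO libraries and 15.8 to 24.0 FPKM in the 6 hypoxic ones, which do not overlap. In Control libraries it was 11.1 to 13.4 FPKM in normoxia and 10.7 to 14.6 FPKM in hypoxia, which overlap. Pgam1, the phosphoglycerate mutase, differed by -1.04 (SE 0.259, adjusted p = 0.0270). The test called 4.34% of all genes, and 5 of 9 erythroid and 6 of 9 cardiac muscle markers passed upward in it. For Cav1-RC against Control, P4ha1 differed by -1.0 (SE 0.202, adjusted p = 0.00627), with 10.5% of all genes called, and without the list term its value was -0.56 and no member passed. P4ha1 held 31.6, 32.2 and 30.7 FPKM in normoxic Cav1-RC males and 20.96, 19.0 and 20.5 in hypoxic ones, whereas Control males held 23.1, 16.3 and 15.8 against 17.1, 23.4 and 12.6. Normoxic replicates 1 and 2 of these Cav1-RC males go against their sex label. In Cav1-RC females P4ha1 held 21.3 and 35.2 FPKM in normoxia and 21.6, 22.3 and 23.4 in hypoxia, which overlap (log2 fold change -0.35, adjusted p = 0.940). These comparisons share their Control libraries. Between Cav1-RC and Cav1-KO, and between females and males, no member passed with edgeR (0.0151% and 0% of all genes called). At an unadjusted p under 0.05 the counts were 4 and 1 members, and DESeq2 also gave 0 in both.

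In the study's own layout, each sex and genotype compared alone without a list term, the counts of members were 0 in Control females (0.0175% of all genes), 12 in Control males (16.0%), 16 in Cav1-KO females (38.2%), 18 in Cav1-KO males (55.1%), 0 in Cav1-RC females (0.0285%, 34 entries tested) and 8 in Cav1-RC males (7.89%). For both comparisons at 0, 8 members had an unadjusted p under 0.05 with edgeR, and DESeq2 called 2 members in Control females and 0 in Cav1-RC females. The directions were 8 higher and 4 lower in Control males, 12 and 4 in Cav1-KO females, 12 and 6 in Cav1-KO males, and 6 and 2 in Cav1-RC males. Past the fold threshold as well were 4, 5, 5 and 2 members, beside 6.36%, 13.3%, 17.7% and 2.27% of all genes. The 18 of 35 members in Cav1-KO males are no larger a share than the 55.1% of all genes.

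**Figure D3:**
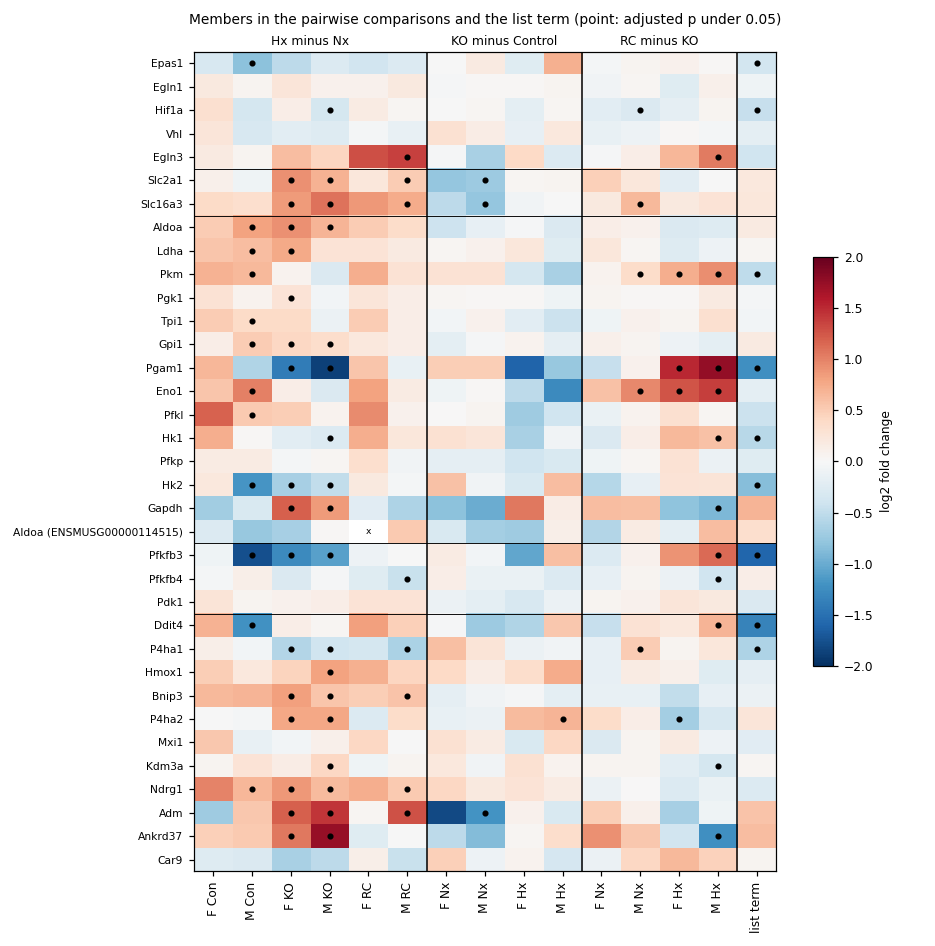
Log2 fold change of every entry (rows, by role) in the 14 comparisons of 2 groups and for the western blot list term (columns), from blue (-2) to red (2); a point marks an adjusted p under 0.05 and a cross an entry not tested. Pgam1, Pfkfb3 and Hk2 are blue both in the list term and in hypoxia of the Cav1-KO groups.

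The 3 comparisons in which list and oxygen coincide were also the ones with many falls. Pfkfb3 fell in Control males (-1.75, SE 0.131), Cav1-KO females (-1.28, SE 0.313) and Cav1-KO males (-1.09, SE 0.170). Hk2, the inducible hexokinase, fell in the same 3 (-1.18, -0.66 and -0.49), and Pgam1 in both Cav1-KO sexes (-1.41, SE 0.111, and -1.86, SE 0.286). All 3 genes were low on the list itself: the list term was -1.59 for Pfkfb3 (SE 0.228), -1.23 for Pgam1 (SE 0.214) and -0.86 for Hk2 (SE 0.155), and Hif1a (-0.46), Ddit4 (-1.34) and P4ha1 (-0.62) were lower on the list too. In all, 9 members were lower on the list, beside 22.2% of all genes, and none of the others passed, with a median of -0.18 over the members and 0.03 over all genes.

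Only Control and Cav1-RC females hold mice on and off the list at the same oxygen level, so the list term was estimated from these groups, and the values behind it are given as a description. Pfkfb3 was 7.44 FPKM in the normoxic Control female on the list, against 15.3 and 26.3 in the others. In hypoxia it was 6.65 FPKM in the one on the list, against 21.2 and 19.0. The normoxic Cav1-RC female on the list held 6.84 FPKM and the other 23.6. Pgam1 split in the same way, with 14.7 against 23.1 and 34.1 FPKM, 16.8 against 51.0 and 47.9, and 14.8 against 34.3. In each of the 3 groups the library on the list was the lowest for both genes. With the list term in 1 fit over all libraries, the hypoxic change of Pfkfb3 in Cav1-KO females and males turned to 0.32 and 0.50, and that of Hk2 to 0.20 and 0.36.

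Other members rose in these comparisons, where list and oxygen cannot be told apart. In 1 fit over all libraries with the list term the counts of members went from 16 to 1 in Cav1-KO females, from 18 to 1 in Cav1-KO males and from 12 to 3 in Control males, so most of the rises that follow lose their call there and Ddit4 turned to 0.14 in Control males. The median over the members went from 0.15 to 0.37, from 0.07 to 0.28 and from 0.06 to 0.16 in that fit. Where list and oxygen coincide, the fit takes the list term off each fold change. That term had a median of -0.18 over the members, so the higher medians follow from it and are no separate result. In 1 fit without the list term the counts were 10, 12 and 10. Markers of other cells moved in these comparisons, and their part was not tested. In Cav1-KO females 6 of 6 ciliated markers rose and 5 of 7 alveolar type 2 markers fell. In Cav1-KO males 7 of 8 erythroid (median 3.54), 6 of 6 ciliated and 5 of 7 neutrophil markers rose and 6 of 7 alveolar type 2 markers fell. In Control males 5 of 7 neutrophil markers rose and 8 of 8 cardiac muscle markers fell. In Cav1-KO females, Ndrg1 (0.87, SE 0.109), Aldoa (0.92, SE 0.148), Gapdh (1.19, SE 0.209), P4ha2 (0.77, SE 0.167), Gpi1 (0.41, SE 0.0927) and Ldha (0.75, SE 0.194) rose with the smallest adjusted p. In Cav1-KO males, Slc16a3 (1.09, SE 0.114), Aldoa (0.68, SE 0.0894), P4ha2 (0.77, SE 0.122), Slc2a1 (0.69, SE 0.114), Ankrd37 (1.74, SE 0.299) and Hmox1 (0.80, SE 0.142) led. In Control males, Aldoa (0.80, SE 0.143), Ldha (0.62, SE 0.132), Ndrg1 (0.66, SE 0.143), Gpi1 (0.51, SE 0.117), Eno1 (1.01, SE 0.235) and Pfkl (0.52, SE 0.136) rose, while Epas1 (-0.81, SE 0.170) and Ddit4 (-1.22, SE 0.302) fell. Epas1 held 609, 440 and 516 FPKM in normoxic Control males and 327.3, 273 and 286 in hypoxic ones. The oxygen levels did not overlap, all 3 hypoxic mice were on the list, and the list term of Epas1 was -0.36 (SE 0.143). Without replicate 1 or replicate 3 of hypoxic Control males the count of 12 fell to 2, and without normoxic Control replicates 2 or 3 to 5 or 3.

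Cav1-RC males, all off the list, rose in Bnip3 (0.58, SE 0.0939), Ndrg1 (0.53, SE 0.0877), Egln3 (1.37, SE 0.243), Slc2a1 (0.51, SE 0.0977), Adm (1.28, SE 0.259) and Slc16a3 (0.75, SE 0.164), and fell in P4ha1 (-0.63, SE 0.0711) and Pfkfb4 (-0.45, SE 0.105). Their macrophage sums were 207.8 to 289.4 FPKM in hypoxia and 392.3 to 509.0 in normoxia, and their neutrophil sums 158.4 to 631.1 against 150.8 to 158.8. In the same comparison 5 of 8 erythroid markers fell (median -2.20), and 3 of 6 ciliated and 2 of 9 cardiac muscle markers rose. Egln3, the hydroxylase that is itself a HIF target, held 1.05, 1.11 and 0.92 FPKM in normoxia and 1.80, 3.05 and 3.07 in hypoxia. Without the 2 normoxic libraries that go against their sex label, which leaves 1 normoxic library, no member passed with edgeR, and none did in 1 fit over all libraries without the list term.

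The second question was the effect of losing caveolin-1. In normoxia, Cav1-KO mice had lower Adm, Slc2a1 and Slc16a3. In males all 3 fell, Slc16a3 by 0.77 (SE 0.130, adjusted p = 0.0102), Slc2a1 by 0.72 (SE 0.143, adjusted p = 0.0180) and Adm by 1.19 on the log2 scale (SE 0.283, adjusted p = 0.0339), and no member rose, with 11.4% of all genes called, 6.52% downward. In females no member passed with edgeR (0.122% of all genes), 4 had an unadjusted p under 0.05 and DESeq2 called 1. Female Adm had a log2 fold change of -1.81 (SE 0.295, adjusted p = 0.105) and Slc2a1 of -0.77 (SE 0.20, adjusted p = 0.222). Over both sexes and with only libraries off the list, Adm (-1.56, SE 0.241, adjusted p = 0.000208), Slc2a1 (-0.74, SE 0.123, adjusted p = 0.000391) and Slc16a3 (-0.55, SE 0.133, adjusted p = 0.00815) fell and P4ha1 rose (0.35, SE 0.0945, adjusted p = 0.0147), with 16.7% of all genes called.

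Adm encodes adrenomedullin, a vasodilator peptide. It held 5.84, 8.39 and 6.65 FPKM in normoxic Control females and 1.76 and 2.24 in Cav1-KO females. In males it held 2.25, 3.43 and 3.44 against 1.74, 0.95 and 1.32 FPKM. In both sexes the groups did not overlap. Slc2a1 held 11.0, 12.1 and 9.27 FPKM in Control females and 6.45 and 6.31 in Cav1-KO females, and in males 8.44, 11.6 and 11.6 against 6.02, 6.05 and 7.12. Again no Cav1-KO library reached a Control library of its sex. Beside these, all 6 ciliated cell markers were lower in Cav1-KO in the same off-list fit and 4 of 7 smooth muscle markers, and their part in the result was not tested. The male count is not steady: it was 0 without any 1 of the 3 Cav1-KO mice, 1 without Control replicate 2 or 3, and 15 without Control replicate 1.

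In hypoxia the count of members that differed between Cav1-KO and Control depended on the method. P4ha2 was higher in Cav1-KO males (0.68, SE 0.129, adjusted p = 0.0468, with 1.60% of all genes called), where the Cav1-KO libraries held 21.03, 15.8 and 19.3 FPKM and the Control libraries 10.7, 12.8 and 11.0. It was the only member edgeR called in males, where DESeq2 called 8, edgeR without its low-count filter 8, 1 fit over all libraries with the list term 7, and the comparison without the Control library against its sex label 4. The call of P4ha2 did not hold everywhere: no member passed with limma on FPKM, with the fold threshold, or without replicate 1 or 3 of either genotype. In females no member passed with edgeR (0.808% of all genes), 5 had an unadjusted p under 0.05, and DESeq2 called 3. Without hypoxic Control female replicate 1, the one on the list, 14 passed. The Control libraries left are then off the list and of high macrophage sum, and the Cav1-KO libraries are all on it. List and genotype cannot be told apart there. With the list term and averaged over sexes and oxygen, 6 members were higher and 6 lower in Cav1-KO, against 24.7% of all genes. Adm (-0.82, SE 0.203), Eno1 (-0.43, SE 0.120), Pfkp (-0.22, SE 0.0648), Slc2a1 (-0.36, SE 0.103), Slc16a3 (-0.35, SE 0.105) and Aldoa (-0.23, SE 0.0839) fell. Hmox1, which degrades heme (0.44, SE 0.104), Ndrg1 (0.30, SE 0.0762), Hk2 (0.32, SE 0.0861), P4ha2 (0.25, SE 0.0690), P4ha1 (0.24, SE 0.0864) and Kdm3a, a histone demethylase (0.14, SE 0.0525), rose. In the same contrast 7 of 9 erythroid markers were higher (median 1.78), and 6 of 7 smooth muscle (median -0.64) and 6 of 6 ciliated markers (median -0.75) were lower. Their part in these differences was not tested.

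The third question was how Cav1-RC mice, with caveolin-1 returned to the endothelium, differed from Cav1-KO mice. The mice of these genotypes came from different sources, so source and returned caveolin-1 cannot be told apart in any of these comparisons. In normoxic males 4 members were higher and 1 lower in Cav1-RC, with 12.5% of all genes called: Eno1 (0.97, SE 0.0864), P4ha1 (0.51, SE 0.0608), Pkm (0.37, SE 0.0573) and Slc16a3 (0.65, SE 0.129) rose and Hif1a fell (-0.29, SE 0.0775). Slc16a3 held 2.73, 3.34 and 3.74 FPKM in these Cav1-RC males against 1.99, 2.15 and 2.08 in Cav1-KO, while Adm held 1.40, 1.16 and 1.73 against 1.74, 0.95 and 1.32 and Slc2a1 7.58, 7.04 and 7.77 against 6.02, 6.05 and 7.12, neither past the test. In normoxic females no member passed with edgeR (0.10% of all genes), 1 had an unadjusted p under 0.05 and DESeq2 gave 0. In hypoxia 4 members passed in females (20.8% of all genes) and 11 in males (44.5%), where genotype and list cannot be told apart. Pgam1 (1.5 and 1.76), Eno1 (1.25 and 1.39) and Pkm (0.73 and 0.92) were higher in both sexes, and P4ha2 was lower in females (-0.68, SE 0.175). The 11 calls in males were 7 higher and 4 lower. Hk1 (0.59, SE 0.107), Pfkfb3 (1.14, SE 0.229) and Egln3 (1.04, SE 0.303) were higher as well, and Ankrd37 (-1.23, SE 0.279), Gapdh (-0.90, SE 0.258), Pfkfb4 (-0.41, SE 0.121) and Kdm3a (-0.35, SE 0.114) were lower. In 1 fit over all libraries with the list term 1 member passed in males and 1 in females, the latter lower, and Pfkfb3 turned to -0.45 in males. Other cells' markers differed here too: neutrophil markers were higher for 6 of 6 in normoxic males (median 1.61) and 9 of 9 in hypoxic females (median 2.20), and in hypoxic males 8 of 8 erythroid markers were lower (median -4.14) and 6 of 7 alveolar type 2 markers higher. Their part was not tested. With the list term over all libraries, Eno1 (0.97, SE 0.144), Pkm (0.33, SE 0.110) and Slc16a3 (0.40, SE 0.125) were higher and Hif1a (-0.34, SE 0.0641) and Hk2 (-0.39, SE 0.104) lower, with 15.8% of all genes called. With only normoxic libraries off the list, Eno1 alone passed (0.85, SE 0.127, adjusted p = 0.000269), against 5.43% of all genes.

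Eno1, the most frequent genotype difference among the members, cannot be read without its copy. Eno1 was 8.34 to 18.4 FPKM in Cav1-KO and 19.6 to 47.6 FPKM in Cav1-RC libraries, while Eno1b was 10.9 to 25.6 FPKM in Cav1-KO and only 0.72 to 3.42 FPKM in Cav1-RC libraries. The 2 genotypes did not overlap at either gene. Among Control libraries Eno1b was 15.6 to 35.6 FPKM, except in hypoxic male replicates 1 and 3, where it was 0.42 and 0.84 FPKM and Eno1 was 32.4 and 31.0. In hypoxic male replicate 2, the library that goes against its sex label, Eno1b was 23.8 FPKM and Eno1 17.4. At this pair of genes those 2 Control libraries lay in or below the Cav1-RC range for Eno1b, and they held the highest Eno1 of the hypoxic Control males.

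**Figure D4:**
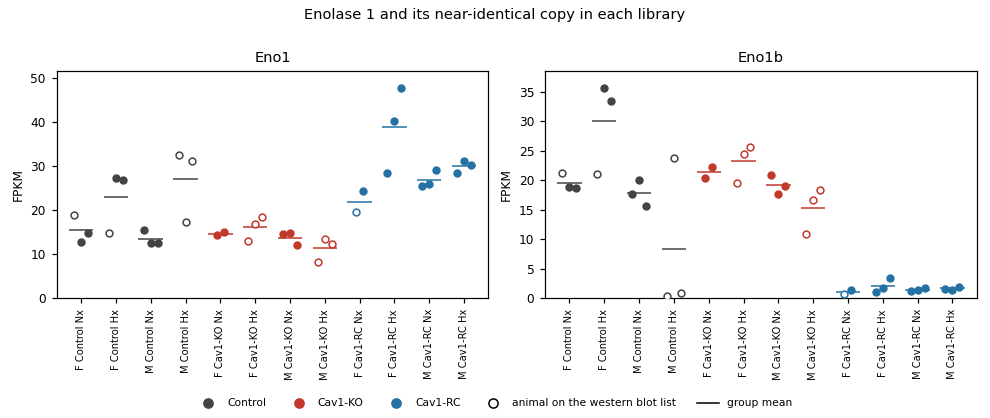
FPKM of Eno1 (left) and of its near-identical copy Eno1b (right) in each of the 34 libraries by group, with open points for mice on the western blot list and lines at the group means. Eno1b lies at 3.42 FPKM or below in all 11 Cav1-RC libraries and in 2 of the 3 hypoxic Control males, and Eno1 is at 19.6 FPKM or above in these libraries.

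With the counts of both genes added, an alternative chosen after seeing the data, the difference between Cav1-RC and Cav1-KO shrank from 0.97 to 0.44 (SE 0.123, adjusted p = 0.0149) in the fit with the list term. In normoxic libraries off the list it shrank from 0.85 to 0.32 (SE 0.123, adjusted p = 0.164), which does not pass. In the single comparisons where Eno1 had a call the summed counts kept it, with 0.45 (SE 0.0769, adjusted p = 0.00367) in normoxic males, 0.89 (SE 0.166, adjusted p = 0.00314) in hypoxic males and 0.72 (SE 0.217, adjusted p = 0.0478) in hypoxic females, where Eno1 alone had 0.97, 1.39 and 1.25. In normoxic females Eno1 alone had 0.58 (adjusted p = 0.499) and the summed counts 0.04 (SE 0.204, adjusted p = 0.948). The oxygen effect moved little, from 0.48 to 0.42 (SE 0.110, adjusted p = 0.0153) with the list term. In Control males the hypoxic rise went from 1.01 to 0.63 (SE 0.140, adjusted p = 0.0271). How reads of these near-identical sequences were divided between both genes was not tested.

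Beyond the 34 symbols, 2 wider lists show how far the pattern reached. Of 41 further genes of the HIF pathway, 39 were tested, and 5 rose and 1 fell in hypoxia with the list term, a median of 0.05. Hilpda, which guards lipid droplets and is usually raised by HIF, fell by 0.80 on the log2 scale (SE 0.113, adjusted p = 2.64e-05). Ero1l, an endoplasmic oxidase (0.34, SE 0.0789), and Stc2, a stanniocalcin (0.54, SE 0.130), were among those that rose. Of 36 further genes of glucose metabolism, 33 were tested and 5 rose, with a median of 0.08: Pgm1 (0.33, SE 0.0653), Aldoc (0.79, SE 0.195), the lactate transporter Slc16a1 (0.27, SE 0.0795) and Pygl, liver glycogen phosphorylase (0.43, SE 0.124), among them. The shares called in these lists, 6 of 39 and 5 of 33, stand beside 9.47% of all genes.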

How the data were processed

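Poly(A)-selected, strand-marked RNA of whole mouse lungs was sequenced by the authors, aligned to mm10 with HISAT2 2.0.5 and counted per gene with featureCounts 1.5.0-p3, per the labels. The deposited counts are raw counts per gene, and the deposited FPKM values are scaled by the authors to gene length and counted read pairs. Tests were run on the counts as deposited, with TMM scaling, edgeR's filter on low counts and its quasi-likelihood test (edgeR 4.0.16, R 4.3.3), adjusted by Benjamini-Hochberg over all genes tested. FPKM served for levels and for limma 3.58.1 as an alternative, and DESeq2 1.42.0 was another. The test was checked on simulated data. Depth of 12425535 to 33343006 counts limits the genes of low level. Groups were taken from the labels, and 1 library without a clear group entered no comparison. Replicates of a group differed by more than sampling noise. The members, the gene and marker lists and the alternatives were chosen with earlier results of these data known.

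Comparisons were each sex and genotype alone (the study's layout), a fit of 12 group means with a term for the western blot list, and a fit of libraries off the list. Named are members past the threshold, up to 6 per direction by adjusted p, with the member of smallest adjusted p and of highest median FPKM in each role. The summed Eno1 and Eno1b counts, the marker sums as terms and the fit without libraries of high macrophage sum were added after the data were seen. Same-numbered replicates did not deviate together in every pair. One gene of the wider lists is counted but not reported by name.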

Additional observations from a re-analysis of the deposited data

Results flagged for a closer look

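For 3 members the effect of hypoxia differed between genotypes in a test of the difference itself, with the list term. The shares of all genes called were 4.34% for Cav1-KO minus Control, with 2 of 35 members, and 10.5% for Cav1-RC minus Control, with 1 of 35. P4ha2 responded more strongly in Cav1-KO than in Control mice, by 0.65 on the log2 scale (SE 0.149, adjusted p = 0.0183), with all 6 hypoxic Cav1-KO libraries above all 5 normoxic ones. Pgam1 differed by -1.04 between the same genotypes (SE 0.259, adjusted p = 0.0270), and it is also among the members lower on the western blot list (-1.23), which holds all hypoxic Cav1-KO libraries. P4ha1 differed by -1.0 between Cav1-RC and Control mice (SE 0.202, adjusted p = 0.00627), a call lost without the list term (-0.56). Leaving out single libraries moved the count for Cav1-KO against Control between 0 and 5 members and that for Cav1-RC against Control between 0 and 6.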

How the results depend on the processing

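Of 269 counts of members under other settings, 195 were within 1.5 times the reported count and 74 were further away; the cause was not tested. In 1 fit over all libraries with the list term, hypoxia called 7 members in Control females, 3 in Control males, 1 in Cav1-KO females, 1 in Cav1-KO males and 2 in Cav1-RC males, Cav1-KO against Control 7 in hypoxic males, and Cav1-RC against Cav1-KO 1 each in normoxic males, hypoxic females and hypoxic males. There the sign turned for Ddit4 in Control males (0.14), for Hk2 (0.20), Pfkfb3 (0.32) and P4ha1 (0.041) in Cav1-KO females, for Pfkfb3 (0.50), Hif1a (0.10), Hk2 (0.36), P4ha1 (0.22) and Hk1 (0.27) in Cav1-KO males, and for Pfkfb3 (-0.45) in hypoxic Cav1-RC against Cav1-KO males. In 1 fit without that term the counts were 3 in Control females, 10 in Cav1-KO females and 0 in Cav1-RC males for hypoxia, 1, 5 and 4 for Cav1-KO against Control (normoxic females, hypoxic females, hypoxic males), and 1 for Cav1-RC against Cav1-KO in normoxic males. Dropping the term from the group fit gave 26 members for oxygen over all mice, 20 in Cav1-KO and 4 in Cav1-RC mice, and 9, 0 and 8 for the differences Cav1-KO minus Control, Cav1-RC minus Control and Cav1-RC minus Cav1-KO.

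DESeq2 called 2 members for hypoxia in Control females, 1, 6, 3 and 8 for Cav1-KO against Control (normoxic females, normoxic males, hypoxic females, hypoxic males), 7 for Cav1-RC against Cav1-KO in hypoxic females, 7 for oxygen in Cav1-KO mice and 5 for the difference Cav1-KO minus Control. Without the low-count filter the 4 Cav1-KO against Control counts were 1, 6, 1 and 8, and the others 7 (hypoxic females, Cav1-RC against Cav1-KO), 7 and 13 (oxygen in Cav1-KO and Cav1-RC mice), 8, 4 and 1 (the differences) and 7 (Cav1-KO against Control off the list). With the fold threshold added they fell to 4, 5, 5 and 2 for hypoxia (Control males, Cav1-KO females and males, Cav1-RC males), to 1 and 0 for Cav1-KO against Control in males (normoxia, hypoxia), to 0, 2 and 5 for Cav1-RC against Cav1-KO (normoxic males, hypoxic females, hypoxic males), to 0, 1 and 1 for oxygen over all, Control and Cav1-RC mice, to 0 for both genotype contrasts and 3 for the list term, to 1 and 0 for the differences, and to 0, 1 and 0 off the list. limma on log2(FPKM + 1) or log2(FPKM + 0.1) gave 0 for Cav1-KO against Control in hypoxic males. Without the libraries against their sex label the counts were 0 (hypoxia in Cav1-RC males), 4 (Cav1-KO against Control, hypoxic males), 2 and 1 (oxygen in Cav1-KO and Cav1-RC mice) and 1 (the difference Cav1-KO minus Control). The neutrophil sum as a term gave 11 for oxygen over all libraries and 11 off the list, the macrophage sum 10 off the list, and leaving out the 3 libraries of high macrophage sum 2. With the replicate number as a block, 1 member passed in normoxic Cav1-KO against Control females and 11 for oxygen over all libraries; the numbers were not found to pair the samples.

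Leaving out 1 library at a time, the counts for hypoxia ranged from 0 to 0 in Control females, 2 to 11 in Control males, 4 to 15 and 14 to 19 in Cav1-KO females and males, and 0 to 0 and 3 to 9 in Cav1-RC females and males. In Cav1-KO females the lowest counts, 5 and 4, came without normoxic replicate 1 or 2, and in Cav1-RC males 3 without normoxic replicate 1 or 2 and 5 without hypoxic replicate 2 or 3. For Cav1-KO against Control they ranged from 0 to 1 and 0 to 15 in normoxic females and males and 0 to 14 and 0 to 4 in hypoxic ones; the count was 1 without normoxic female Control replicate 1, and in hypoxic males 0 without replicate 1 or 3 of either genotype and 4 without replicate 2 of either. For Cav1-RC against Cav1-KO they ranged from 0 to 11 and 4 to 6 in normoxic and 2 to 5 and 6 to 11 in hypoxic females and males, with 1 and 11 without normoxic female Cav1-RC replicates 1 and 2, 2 without hypoxic female Cav1-KO replicate 1 or 2, 6 without hypoxic male Cav1-KO replicate 1 and 7 without hypoxic male Cav1-RC replicate 2. With the list term they ranged from 13 to 21 for oxygen over all mice, 7 to 15 in Control (7 without hypoxic female Control replicate 2), 1 to 4 in Cav1-KO (4 without hypoxic male Cav1-KO replicate 2) and 1 to 11 in Cav1-RC mice (1 without normoxic female Cav1-RC replicate 2, 11 without hypoxic female Control replicate 1), 7 to 14 for Cav1-KO minus Control (7 without normoxic female Control replicate 1), 3 to 6 for Cav1-RC minus Cav1-KO, 8 to 10 for the list term, and 0 to 5, 0 to 6, 0 to 0 and 0 to 0 for the differences of oxygen effect between genotypes and sexes. The 5 came without hypoxic female Control replicate 1 and the 6 without hypoxic female Cav1-RC replicate 3. Off the list they ranged from 15 to 20 for oxygen, 2 to 8 for Cav1-KO minus Control (8 without hypoxic female Cav1-RC replicate 3, 2 without normoxic female Control replicate 2) and 1 to 2 for Cav1-RC minus Cav1-KO. Where an arm kept 1 library, it was assumed to vary like the others.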

Other observations

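One further library, whose label leaves its group uncertain, was kept out of every comparison. It held 30930450 counts, of which 137 were Cav1 (1.34 FPKM). Ndrg1 stood at 10.6 FPKM, Aldoa at 224.1, Bnip3 at 16.9 and Slc16a3 at 4.86. Pgam1 was 8.15 FPKM and Pfkfb3 7.60, and P4ha2 was 18.1, Adm 2.61, Epas1 412.1 and Eno1 11.52. Its mouse is on the western blot list, as a normoxic Cav1-KO female, and the library's label gives that group as possible. Its Ndrg1 lies above the 4.36 to 6.69 FPKM of the grouped normoxic libraries and within the 7.46 to 12.5 of the hypoxic ones. Were that group right, Ndrg1 would not separate the oxygen levels completely.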
